A study of Mus musculus with 17 samples.

Results

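preGM is a progenitor fraction of mouse bone marrow at the entry to the granulocyte and monocyte lineages, and its transcript levels were compared with those of 4 other progenitor fractions. It was sorted as Lin-Sca1-Kit+Itga2b-FcgRlowSlamf1-Englow cells and measured on 3 of the study's 17 Affymetrix arrays. The other fractions were CLP (Lin-Sca1lowKitlowIL7r+Flk2+, common lymphoid progenitors, 3 arrays) and 3 fractions on the way to platelets and red cells. These were preMegE (Lin-Sca1-Kit+Itga2b-FcgRlowSlamf1+Englow, 5 arrays), MkP (Lin-Sca1-Kit+Itga2b+Slamf1+, 3 arrays) and preCFUE (Lin-Sca1-Kit+Itga2b-FcgRlowSlamf1+Enghigh, 3 arrays). All cells came from adult mice aged 10 to 14 weeks, and the labels used here name no strain, allele or treatment. It is not given in the sources used here if replicates are different animals or different sorts, so each p-value reflects only how these arrays scatter, and that scatter may be technical. In bulk samples such as these, fewer cells of a type in a gate and less RNA of a gene per cell cannot be told apart.

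The 5 fractions were compared over 18193 genes, each read by 1 probe set. A gene was taken as apart in preGM when all 3 preGM arrays lay above, or all 3 below, every one of the 14 other arrays. That rule picked 434 genes (2.39% of those tested), of which 380 lay above (2.09%) and 54 below (0.297%). These are called preGM-high and preGM-low genes. The rule used the same arrays as the test of preGM against the mean of the other 4 fraction means, so for these genes the test values are a description and not independent support. In that test, made with limma on log2(intensity + 16), 1270 genes (6.98%) were higher and 362 (1.99%) lower at an adjusted p under 0.05, and 3827 genes had an unadjusted p under 0.05. Of the preGM-high genes 366 passed it, and of the preGM-low genes 22 did. Because 16 is added to every intensity, the change of a dim gene is understated on this scale.

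Granulocytes and monocytes arise from progenitors that begin to make the enzymes of the azurophil, or primary, granules well before they mature. Transcription of these genes depends on factors such as PU.1, C/EBPα and Myb, and growth through this stage depends on the receptors for M-CSF, GM-CSF and G-CSF. Erythroid and megakaryocyte progenitors instead rely on GATA1, and lymphoid progenitors on Flt3 and interleukin-7 signalling and on regulators such as Ebf1.

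The 4 genes that mark the fraction were all preGM-high, and 3 of them encode proteins of the primary granule. Mpo is myeloperoxidase, Prtn3 is proteinase 3, Ctsg is cathepsin G, and F13a1 is the A chain of coagulation factor XIII, made by monocytes and macrophages. Prtn3 lay on chromosome 10 directly beside Elane, the gene of neutrophil elastase, among the genes measured here. The promoters of the 4 granule enzyme genes are shown because these genes stood apart together. Each window runs from 250 bases before to 50 after the gene start in the RefSeq table of GRCm38.p6, at chr11:87793534-87793833 (plus strand) for Mpo, chr10:79879417-79879716 (plus) for Prtn3, chr10:79886062-79886361 (plus) for Elane and chr14:56102525-56102824 (minus) for Ctsg. Capitals mark matches on either strand to GAGGAA, a PU.1 core, and to TAACNG, a Myb core.
Mpo: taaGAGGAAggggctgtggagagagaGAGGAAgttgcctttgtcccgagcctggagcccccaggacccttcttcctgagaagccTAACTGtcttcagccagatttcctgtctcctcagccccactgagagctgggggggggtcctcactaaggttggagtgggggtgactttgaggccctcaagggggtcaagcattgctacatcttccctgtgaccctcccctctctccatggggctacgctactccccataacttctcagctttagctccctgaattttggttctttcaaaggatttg
Prtn3: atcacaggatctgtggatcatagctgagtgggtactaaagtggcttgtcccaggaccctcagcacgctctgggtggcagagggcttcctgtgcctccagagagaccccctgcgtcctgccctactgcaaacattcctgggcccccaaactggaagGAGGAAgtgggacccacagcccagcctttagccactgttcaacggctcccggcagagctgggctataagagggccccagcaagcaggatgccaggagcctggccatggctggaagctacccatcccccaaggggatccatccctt
Elane: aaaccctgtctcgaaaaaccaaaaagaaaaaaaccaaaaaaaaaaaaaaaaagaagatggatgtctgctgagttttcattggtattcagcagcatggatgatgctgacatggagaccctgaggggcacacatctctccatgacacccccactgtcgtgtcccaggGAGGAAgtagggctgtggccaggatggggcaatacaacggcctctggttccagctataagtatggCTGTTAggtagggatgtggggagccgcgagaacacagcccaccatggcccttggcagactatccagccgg
Ctsg: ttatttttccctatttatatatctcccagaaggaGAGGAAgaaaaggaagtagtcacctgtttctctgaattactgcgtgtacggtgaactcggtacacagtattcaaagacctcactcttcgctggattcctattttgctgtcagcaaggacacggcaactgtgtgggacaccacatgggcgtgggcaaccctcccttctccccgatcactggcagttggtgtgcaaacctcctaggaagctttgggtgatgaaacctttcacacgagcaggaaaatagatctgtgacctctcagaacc
GAGGAA stood in all 4 windows, 2 times in Mpo and 1 time in each other. TAACNG stood once in Mpo and once, on the opposite strand, in Elane. Neither TTGCNNAA, a C/EBP site, nor a site of GATA factors with the letters AGATAA was found in these 4 windows. Matches this short are common. GAGGAA stood in 30.4% of the 306 preGM-high genes with a promoter in the table, in 28.2% of the 39 preGM-low genes and in 27.0% of all 14368 genes with one. TTGCNNAA stood in 12.1%, 5.1% and 9.0% in the same order, TAACNG in 17.6%, 15.4% and 19.97%, and AGATAA in 6.2%, 7.7% and 8.1%. A match is a description of the letters, and the 4 motifs were counted separately even where 2 of them overlapped.

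The arrays of preGM differed among themselves, and 1 array outside the fraction lay close to them. Pairs of preGM arrays correlated at r = 0.964 to 0.996 over all genes, and replicate 3 was the one apart from the other 2. CLP replicate 2 correlated better with preGM on average (r = 0.9615) than with its own fraction (r = 0.9492). The log2 ratio of 3-prime to 5-prime Gapdh control probe sets, a measure of RNA shortening, was 2.722, 3.145 and 3.944 in preGM and ran from 2.855 to 5.122 in the other arrays. All 3 CLP arrays had low Xist (16.5 to 37.9, against 1030 or more in every other array) and a Y-linked Kdm5d signal (47.8 to 124, against at most 8.22 elsewhere), so lymphoid identity and the sex of the mice cannot be told apart in preGM against CLP. Leaving out preGM replicate 3 and CLP replicate 2 together, an alternative chosen after seeing the data, gave 1498 genes apart in preGM in place of 434, and 2888 past the test in place of 1632. With fewer arrays the rule for genes apart is looser, which by itself adds genes.

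Of 8 measured genes of the sort, 3 were higher in preGM, 2 were lower and 3 did not pass the test. Slamf1 transcript, whose protein was gated as negative, had an intensity of 10.7, 8.83 and 12.3 in the preGM arrays, close to CLP (10.4 to 13.04) and below all 11 arrays of preMegE, MkP and preCFUE (19.0 to 114). Itga2b, the platelet integrin gated as negative, was 126 ± 25.0 (SD, n = 3) in preGM against 2058 ± 249 (n = 3) in MkP. Without the MkP fraction its difference from the others turned from -0.78 to 0.25 (log2). Kit, the receptor for stem cell factor, was 476 ± 30.6 in preGM and did not pass the test against the mean of the others (log2 difference 0.68 ± 0.221, adjusted p = 0.0757). It did pass without CLP replicate 2 (limma, adjusted p = 0.0124), without MkP replicate 2 (0.0462) and without preMegE replicate 3 (0.0492). With all arrays kept, Kit passed with array weights (limma, adjusted p = 0.00087). It also passed with a filter on SD over mean (0.0176) and with genes dim in every fraction left out (0.0499). Fcgr3, a low-affinity Fc gamma receptor, was a preGM-high gene, at 30.2, 44.5 and 30.3 against at most 19.6 in the other arrays. Fc gamma receptor protein was gated as low in preGM, preMegE and preCFUE alike. Fcgr2b, another Fc gamma receptor, was 108 ± 10.4 and higher by 0.44 ± 0.119, a call that was lost after quantile normalization (0.18, adjusted p = 0.492). Eng, endoglin, gated as low, was 189 ± 43.7 in preGM and 237 ± 44.2 in preCFUE and did not pass.

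**Figure D1:**
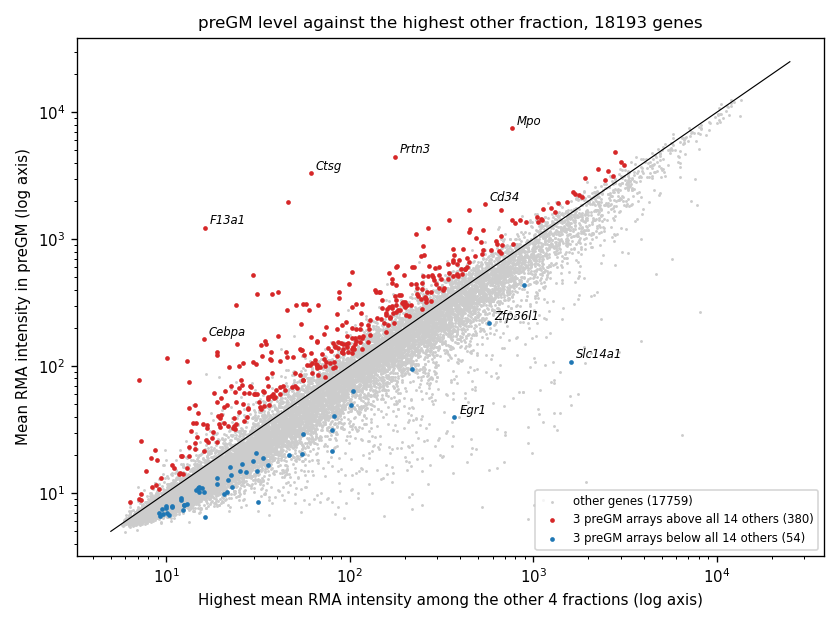
Mean RMA intensity of each of 18193 genes in preGM (3 arrays, vertical log axis) against the highest mean among the 4 other fractions (horizontal log axis), with the line of equality. Red points are the 380 preGM-high genes and blue points the 54 preGM-low genes, and Mpo, Prtn3, Ctsg and F13a1 lie farthest above the line at high intensity.

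Genes of the primary granules gave the largest differences of all preGM-high genes. The list named primary granule proteins also holds other genes, such as the receptor Igsf6, the glutathione transferase Gstm1 and the inhibitor Serpinb1a. Its counts are thus not for granule proteins alone. Of its 14 measured genes, 12 were higher in preGM, none was lower and 2 did not pass the test. Among all genes 6.98% were higher and 1.99% lower. At an unadjusted p under 0.05 as well, 0 genes were lower (limma) on this list and on those of monocyte, oxidase and lysosomal genes. The list's median log2 difference was 1.85, against -0.018 over all genes. Of the 14 genes, 8 were preGM-high, where 2.09% of all genes were. The summed intensity of the list ran from 22450 to 28730 in the preGM arrays and reached at most 11564 in any other.

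Mpo, whose product makes hypochlorous acid, was measured at 7013, 6929 and 8567 in the preGM arrays. In CLP it was 737, 837 and 723, and in the 11 arrays of preMegE, MkP and preCFUE it ran from 16.3 to 171 with a median of 39.3. The 3 groups did not overlap, with CLP second, and preGM lay above CLP by 3.26 ± 0.459 (SE) on the log2 scale. Against the mean of the other fractions the log2 difference was 6.06 ± 0.359 (limma, adjusted p = 4.33e-08).

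Ctsg and Prtn3 encode serine proteases of the same granule. Ctsg was 3927, 3671 and 2293 in preGM, and between 20.1 and 74.4 in all other arrays. Prtn3 was 4985, 5042 and 3407 in preGM, 27.3, 35.8 and 24.5 in CLP, and 41.3 to 226 in the other 11 arrays. The order of the fraction means below preGM thus differed between these genes, with CLP second for Mpo and Ctsg and last for Prtn3. For Prtn3 the difference from CLP (log2 6.62 ± 0.302) was larger than that from MkP (4.57 ± 0.302), the next highest fraction at 176 ± 55.1.

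Elane, neutrophil elastase, was dimmer on its probe set. It read 81.5, 168 and 198 in preGM and at most 34.0 in the others, and replicate 1 was the lowest preGM array where replicate 3 was for Prtn3 and Ctsg. Hp, haptoglobin, was 158, 142 and 70.9 against at most 24.7. Igsf6, an immunoglobulin superfamily receptor of myeloid cells, was 109 ± 18.3 in preGM and between 8.48 and 14.0 in every other array. Ctsc, which activates the granule proteases by clipping them, was 830 ± 77.8 in preGM and 274 to 468 in CLP. Gstm1, a glutathione transferase on the list, was 257 ± 101 in preGM and at most 108 elsewhere.

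The other genes of this list were shared more widely. Serpinb1a, an inhibitor of elastase and cathepsin G, was higher in preGM (log2 2.88 ± 0.370, adjusted p = 0.000106), but CLP replicate 2 read 1350, between the preGM values of 1744, 1276 and 705. Ms4a3, a membrane protein of granulocyte and monocyte progenitors, was 175, 205 and 33.2 in preGM, and replicate 3 lay below the highest MkP array (61.5). Srgn, the proteoglycan core of many granules, was 3062 ± 597 in preGM and 3456 ± 205 in preMegE and did not pass the test (log2 0.22 ± 0.171, adjusted p = 0.486). Nkg7, a granule membrane protein, was 318 ± 82.1 in preGM and likewise did not pass (0.58 ± 0.195, adjusted p = 0.0912).

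A mixed list of secondary granule and mature neutrophil genes, which belong to later neutrophil development, was a contrast. Of 14 measured, 1 was higher in preGM and 13 did not pass, with a list median of 0.34. Of all genes, 6.98% were higher. The gene that passed was Padi4, an enzyme that citrullinates histones, at 55.0, 60.5 and 65.5 in preGM against 24.6 to 42.2 in CLP and at most 16.03 in the other 11. Ngp, neutrophilic granule protein, was 233, 653 and 111 in preGM and 28.8 to 852 in the arrays of preMegE, MkP and preCFUE. S100a8, a calcium-binding protein of neutrophils, was 126, 432 and 18.8, and without preGM replicate 2 its log2 difference turned from 0.85 to -0.04. Summed over the list, the arrays ran from 407 to 1972 in preGM and from 231 to 422 in CLP. The same sums were 240 to 1880 in preMegE, 350 to 558 in preCFUE and 253 to 1748 in MkP. These genes thus varied between the arrays of several fractions, and their part in the primary granule results was not tested.

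**Figure D2:**
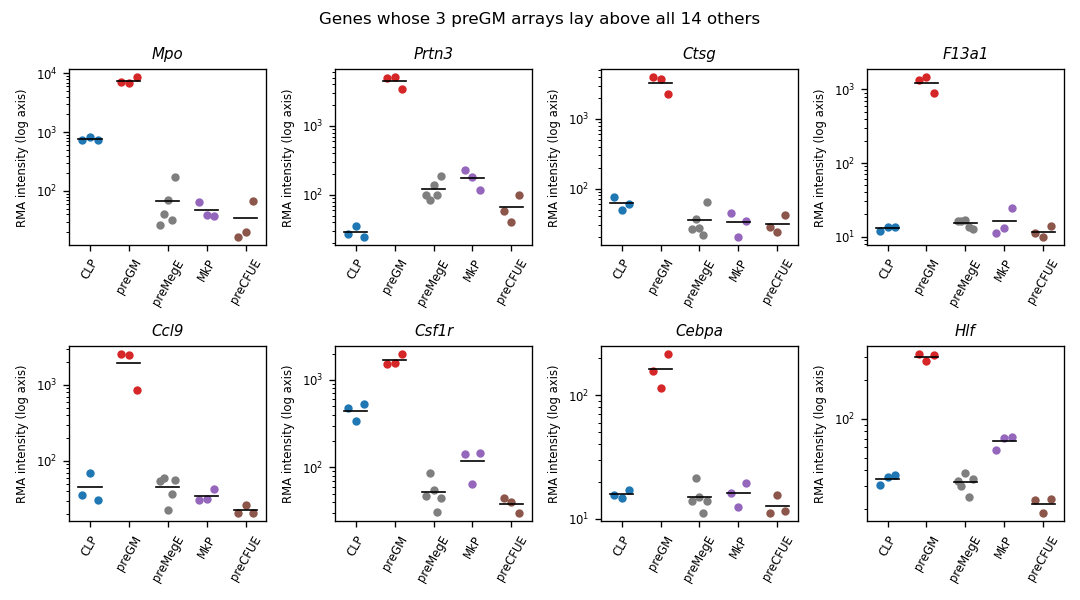
RMA intensity (log axis) of 8 preGM-high genes on each array by fraction, with points for arrays and bars for fraction means (5 arrays for preMegE, 3 for each other fraction). The 3 preGM arrays lie above all others in every panel, CLP comes second for Mpo and Csf1r, and MkP comes second for Hlf.

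Monocyte and macrophage genes were the next group. Of 24 measured, 13 were higher in preGM, none lower and 11 not past the test, with a median of 0.84, and 6 were preGM-high. Of all genes, 6.98% were higher, 1.99% lower and 2.09% preGM-high. F13a1 was 1326, 1459 and 907 in preGM and between 9.81 and 24.7 in all other arrays. Its difference was nearly the same against each fraction, from 5.27 ± 0.162 (MkP) to 5.47 ± 0.162 (preCFUE) on the log2 scale. Ms4a6c, a tetraspan membrane protein of monocytes, was 599, 565 and 406 against at most 46.9. Tyrobp and Fcer1g encode signalling adaptors of myeloid receptors. Tyrobp was 402 ± 76.2 in preGM, 137 ± 30.1 in CLP and at most 30.4 in the other 11 arrays. Fcer1g was 205 ± 37.4 in preGM, and its highest value elsewhere was 87.6.

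Other genes known from monocytes and macrophages overlapped with CLP or MkP, or were dim. Cd68, a lysosomal glycoprotein of macrophages, was a preGM-high gene at only 50.9, 47.4 and 41.8, against at most 17.01. Lyz2, lysozyme, was higher (log2 1.76 ± 0.259, adjusted p = 0.000375) at 405, 341 and 132, with MkP reaching 169. Mpeg1, perforin-2, was 607 ± 52.1 in preGM but 1182 ± 734 in CLP. Ccr2, the receptor that draws monocytes from marrow, was 49.8 ± 6.16 in preGM and 84.2 ± 31.5 in CLP, and its log2 difference of -0.26 did not pass and turned to 0.17 with the mean over its probe sets. Klf4, a factor of monocyte differentiation, was 26.8 ± 9.03 and did not pass (0.37 ± 0.149).

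Ccl9, a chemokine that draws CCR1-bearing cells, had the fifth largest difference of all preGM-high genes. It read 2573, 2478 and 856 in preGM, 36.0, 70.2 and 30.8 in CLP and 20.4 to 59.7 in the other 11 arrays. Replicate 3 was the lowest of the fraction here too, yet its 856 stayed far above every other array. Ms4a6b, a relative of Ms4a6c, was 484, 387 and 289 in preGM and at most 54.9 elsewhere.

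Receptors for myeloid growth factors were higher as a rule. Of 12 measured, 8 were higher, 1 lower and 3 not past the test (median 1.09), and 5 were preGM-high. Of all genes, 6.98% were higher, 1.99% lower and 2.09% preGM-high. Csf1r, the M-CSF receptor, was 1516, 1552 and 1990 in preGM, 476, 337 and 525.7 in CLP, and 29.8 to 148 in the other 11 arrays. Both of its other probe sets also lay above all 14 others. Csf2rb, the shared chain of the GM-CSF, IL-3 and IL-5 receptors, was 345 ± 59.0 in preGM and at most 108 elsewhere. Csf3r, the G-CSF receptor, was lower in level at 76.9, 104 and 160, against 25.3, 32.0 and 52.7 in CLP and at most 24.4 in the rest.

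The receptor genes differed in which fraction came next. Il6ra, the IL-6 receptor, was 248, 302 and 377 in preGM and came next in MkP (108 ± 13.2), while its preMegE and preCFUE arrays all lay at 11.5 to 20.9. Tnfrsf1a, a TNF receptor, was 515 ± 107 in preGM and 114 to 308 in the other 11 arrays. Il6st, the signalling partner of Il6ra, passed the test (1.79 ± 0.298, adjusted p = 0.00108) with CLP at 258 ± 144 and preGM at 208 ± 131. Epor, the erythropoietin receptor, was the lower one, at 30.4 ± 7.44 against 231 ± 35.7 in preCFUE. Il3ra (24.2 ± 2.89) and Ifngr1 (224 ± 33.9), the receptors for IL-3 and interferon gamma, did not pass.

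Among 20 transcription factors of myeloid cells, 10 were higher, 2 lower and 8 not past the test (median 0.45). Of all genes, 6.98% were higher and 1.99% lower. Cebpa, the C/EBPα gene, was 158, 116 and 217 in preGM and 11.04 to 21.3 in all 14 other arrays. Its 4 pairwise differences lay within 2.45 ± 0.166 (MkP) and 2.61 ± 0.166 (preCFUE). Cebpb was 47.2 ± 9.74 in preGM and at most 30.9 elsewhere. Cebpd read 54.0, 107 and 23.0, so that replicate 3 was only just above the highest other array (21.7). These 3 members of the C/EBP family were the preGM-high genes of the list.

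Spi1 and Gfi1 were higher than in each fraction taken singly but overlapped with single CLP arrays. Spi1, which encodes PU.1, was 103, 131 and 202 in preGM and 122, 59.4 and 62.3 in CLP. Its log2 difference was 0.74 ± 0.224 against CLP (adjusted p = 0.0367) and 1.79 ± 0.224 against preCFUE. Gfi1, a repressor that favours granulocytes, was 229, 271 and 158 in preGM and 51.7, 200 and 93.2 in CLP, and at most 11.2 in the other 11 arrays. Irf4 was lower (-0.38 ± 0.103, adjusted p = 0.0339), at 8.90 ± 1.12 against 36.4 ± 12.4 in CLP. That call was lost without the CLP fraction (-0.15, adjusted p = 0.232) and without any 1 preGM array. Myb was 3520 ± 96.7 in preGM, close to CLP (3628 ± 473) and between MkP (2005 ± 191) and preMegE (5049 ± 894). Neither Myb nor Nfe2l2, a factor of the response to oxidants (464 ± 123 in preGM), passed the test.

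Many of the largest differences came from genes that preGM shared with CLP, and these were not preGM-high. Irf8, a factor of monocytes, dendritic cells and B cells, was 1664, 1627 and 1234 in preGM and 978, 1699 and 810 in CLP, against 10.4 to 34.9 in the other 11 arrays. Its difference from CLP was 0.43 ± 0.244 (log2, adjusted p = 0.218). Satb1, a chromatin organiser of early lymphoid cells, was 1369, 1384 and 1097 in preGM and 1750, 2651 and 1655 in CLP. Ctss, cathepsin S, was 1231 ± 442 in preGM and 1538 ± 807 in CLP.

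Some genes taken as lymphoid were well above the erythroid and megakaryocyte side in preGM though lower than in CLP. Dntt, the terminal transferase that adds nucleotides to antigen receptor joints, was 2098, 2332 and 1168 in preGM, 7463, 10275 and 5702 in CLP, and 12.6 to 25.9 in the other 11 arrays. Flt3 was 1032, 1126 and 1112 in preGM and 2304, 2389 and 1662 in CLP, with at most 77.5 elsewhere. Notch1 was 1101 ± 346 in preGM and 2856 ± 194 in CLP. Ighm, the heavy chain of IgM, was 904 ± 102 in preGM and 2319 ± 656 in CLP, and 1 preMegE array read 583 where its other 4 read 10.8 to 22.0.

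Over the whole list of 23 lymphoid genes, 5 were higher, 8 lower and 10 not past the test (median -0.16). Of all genes, 6.98% were higher and 1.99% lower. Ebf1, the B lineage factor, was 6.29 ± 0.956 in preGM against 941 ± 262 in CLP, and Rag1, of the antigen receptor recombinase, 8.78 ± 0.830 against 1127 ± 756. Both were as dim in preMegE, MkP and preCFUE as in preGM, and without the CLP fraction the differences were 0.02 (Ebf1) and 0.06 (Rag1). Il7r, part of the CLP gate, was 79.4, 86.7 and 15.5 in preGM, 1296 to 2367 in CLP and 9.51 to 17.05 in the other 11 arrays. Replicate 3 alone lay within the range of those 11. The log2 difference from the mean of the others was -0.22 (adjusted p = 0.65), and without replicate 3 it was 0.34. Without the CLP fraction the Il7r difference was 1.27 and passed the test (limma, adjusted p = 0.0054). Mef2c (840 ± 24.3) and Ikzf1 (1070 ± 28.2), both with broad roles in blood progenitors, did not pass.

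**Figure D3:**
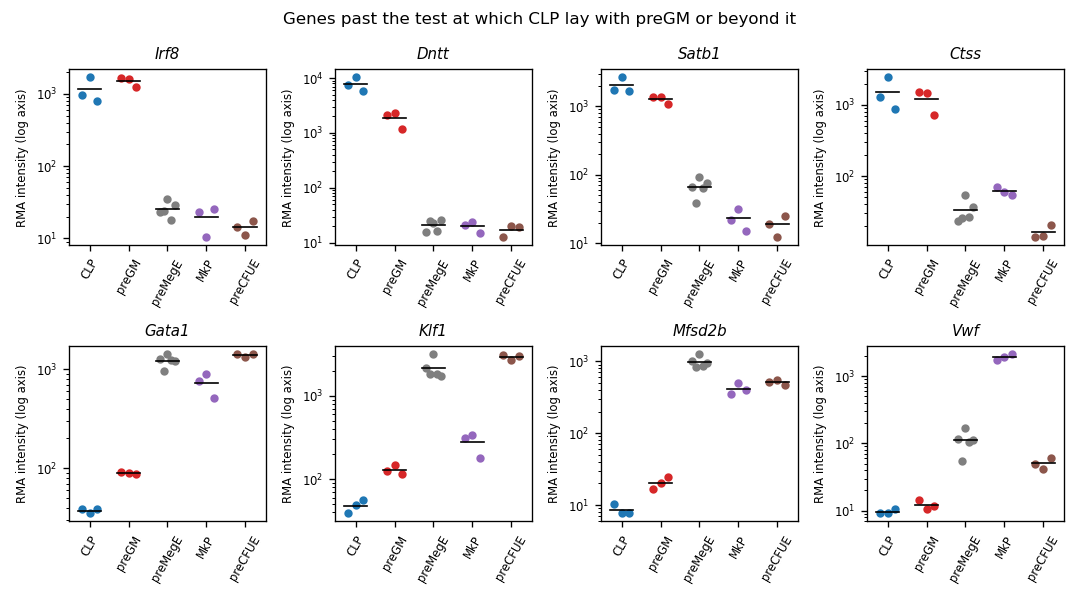
RMA intensity (log axis) of 8 genes past the test in which preGM and CLP lay on the same side, by fraction, with points for arrays and bars for means. Irf8, Dntt, Satb1 and Ctss (top) are high in preGM and CLP, and Gata1, Klf1, Mfsd2b and Vwf (bottom) are low in both.

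Leaving out any fraction leaves fewer arrays to lie apart from, which by itself adds genes. With CLP left out, 888 genes lay above and 225 below all 11 remaining arrays, in place of 380 and 54, and with MkP left out, which also has 3 arrays, 486 lay above and 98 below. In 252 of the 888 the CLP mean was at or above the preGM mean, and in 104 of the 225 it was at or below it. CLP was the next highest fraction in 150 (39.5%) of the preGM-high genes, MkP in 104 (27.4%), preMegE in 78 (20.5%) and preCFUE in 48 (12.6%), where over all genes the highest of the 4 was CLP in 32.5%, MkP in 23.1%, preMegE in 16.3% and preCFUE in 28.2%. preCFUE was the lowest fraction in 186 of the preGM-high genes (48.9%, against 28.4% of all genes). CLP replicate 2 alone was the nearest other array in 103 of the 380.

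Phagocyte oxidase genes, which encode the enzyme of the respiratory burst, showed both patterns. Of 5 measured, 4 were higher and 1 did not pass (median 1.06), where 6.98% of all genes were higher. Cybb, the catalytic chain, was preGM-high but dim, at 30.3, 66.2 and 31.9 against at most 21.8. Ncf4, a regulatory subunit, was 275, 251 and 279 in preGM, with CLP replicate 2 next at 238. Ncf1, another subunit, was 979 ± 313 in preGM and 1043 ± 517 in CLP. Rac2, the GTPase of the complex, was 539 ± 57.5 in preGM and 469 ± 76.0 in CLP. Cyba, the partner of Cybb, did not pass (0.23 ± 0.221), and without CLP its difference turned to -0.07.

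Lysosomal genes were higher in 9 of 17, with none lower (median 0.97), and 6 were preGM-high. Among all genes the shares were 6.98%, 1.99% and 2.09% in that order. Hexa, a hexosaminidase subunit, was 1655, 1331 and 613 in preGM and 142 to 518 elsewhere. Npc2, which carries cholesterol out of lysosomes, was 3561 ± 465.8 and at most 2671 elsewhere. Another bright probe set of Npc2 was not apart, with preGM replicate 3 at 1272.2 and CLP replicate 2 at 1320.4. Grn, progranulin, was 1978, 1898 and 2958, with MkP next at 1689 ± 146. Ctsh, cathepsin H, was 98.6 ± 25.4 and at most 24.9 elsewhere. Ctsb (413 ± 48.8) and Ctsz (295 ± 112), also cathepsins, lost the call without preGM replicate 1 or 2 (adjusted p = 0.0795 and 0.0667 for Ctsb, 0.106 and 0.0976 for Ctsz). Lamp1 (994 ± 123) and Lamp2 (1902 ± 330), the main lysosomal membrane proteins, did not pass.

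Genes of stem and multipotent cells were higher in 12 of 25 and lower in 2 (median 0.78), and 5 were preGM-high. Among all genes the shares were 6.98%, 1.99% and 2.09% in that order. Cd34, a sialomucin of early progenitors, was 2153, 2074 and 1406 in preGM, 331, 943 and 356 in CLP, and 11.98 to 126 in the other 11 arrays. Hlf, a factor of stem cells, was 321, 281 and 311 in preGM, 67.2 ± 8.78 in MkP and 18.4 to 38.3 in the other 11 arrays. Its other probe set was also apart, at 223.9, 278.0 and 174.5 against at most 127.3. Procr, the protein C receptor that marks stem cells, was 84.2, 98.4 and 41.6 against at most 17.7. Emcn, endomucin, was dim at 24.6, 16.1 and 28.5, just above the highest other array at 14.7.

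Other genes of this list were shared with MkP or CLP. Mecom, a stem cell factor, was 130 ± 26.1 in preGM and 106 ± 21.3 in MkP, and at most 25.9 elsewhere. Hoxa9 was 1745 ± 181 in preGM and 1694 ± 433 in CLP, and Erg 452 ± 9.73 and 402 ± 73.4. Sox4 was 1739 ± 383 in preGM, 1670 ± 584 in CLP and 1012 ± 346 in preMegE. Meis1 (525 ± 70.5) and Lmo2 (2602 ± 865) did not pass. Prdm16 was preGM-high at 57.6 ± 1.12, but with the mean over its probe sets the difference was 0.18 (adjusted p = 0.261), and without preGM replicate 1 its adjusted p was 0.0509.

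Further preGM-high genes lay outside the lists, and those named here were chosen by size or after their values were seen. Emb, embigin, a partner of monocarboxylate transporters, was 1432, 1159 and 813 in preGM, 295, 739 and 309 in CLP and 9.67 to 28.4 in the other 11 arrays. Another bright probe set of Emb was not apart, with preGM replicate 3 at 342.0 and CLP replicate 2 at 503.4. B3gnt5, a glycosyltransferase of lacto-series glycolipids, was 619, 577 and 618, with CLP replicate 2 at 371. Adgrl4, an adhesion receptor of endothelium, was 1142, 1405 and 743 and at most 296 elsewhere. Vldlr, a lipoprotein receptor, was 238, 292 and 398, and MkP came next at 55.8 ± 13.7.

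Enzymes and signalling genes stood among them. Hk3, a hexokinase of myeloid cells, was 376, 328 and 409 in preGM and 23.0 to 39.3 in all 14 others, with a log2 difference of 3.00 ± 0.100 (adjusted p = 1.26e-10). Fbp1, fructose bisphosphatase, was 320, 303 and 289 against at most 61.1. Met, the receptor for hepatocyte growth factor, was 121, 114 and 113 against at most 11.8. Hk3 and Met thus had preGM arrays close together and far from the rest. Mgst1, a microsomal glutathione transferase, was 503, 450 and 160, and Anxa3, annexin A3, was 403, 341 and 167, both with replicate 3 lowest. Alox5ap, which presents arachidonate to 5-lipoxygenase, was 2207, 2043 and 868, just above MkP at up to 819. Anxa1, an anti-inflammatory annexin, was 1053, 1040 and 581 against at most 394. Ckap4, a membrane protein of the endoplasmic reticulum, was 622, 681 and 889 against at most 288.

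The preGM-high genes as a whole ran from a log2 difference of 0.12 to 6.06, with a median of 1.01. In 192 the difference was at least 2-fold and past the test, and 220 passed the test against each of the 4 fractions singly, as 248 of all genes did (1.36%). Against CLP 315 of them passed, where 13.3% of all genes were higher in preGM and 5.07% lower. The counts were 315 against preMegE (5.88% and 2.81% of all genes), 305 against MkP (7.55% and 3.57%) and 317 against preCFUE (8.26% and 5.79%), and nothing is read from them because the rule used these contrasts. The gap between the lowest preGM array and the highest other array had a median of 0.19 on the log2 scale and was at least 1 in 38. Replicate 3 was the lowest preGM array in 157, replicate 1 in 116 and replicate 2 in 107. In 14 the preGM mean was under 16. At the edge of the rule, C8g was inside with a gap of 0.000443 and Ift81 outside with -1.11e-05, so membership there turned on differences far below the spread of arrays.

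The other probe sets of these genes, which the rule did not use, gave another reading on the same arrays. Of 450 such probe sets in 238 preGM-high genes, 93 (20.7%) also had all 3 preGM arrays on top and 0 had them at the bottom, where 1.1% of all 16752 further probe sets lay above and 0.39% below. These readings come from the same arrays, so they add probe sets and no samples. Of 36 further probe sets in 21 preGM-low genes, 2 lay below.

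Some preGM-high genes were neighbours on a chromosome. No count of such neighbours expected from the number of members was made, so they are given as positions only. The longest run of adjacent measured genes that were all preGM-high was Plppr3, Prtn3 and Elane on chromosome 10. Mcpt8 and Ctsg were adjacent on chromosome 14, Tspoap1 and Mpo on chromosome 11, Hlf and Stxbp4 on chromosome 11, and Tmem176b and Tmem176a on chromosome 6. Plppr3, a lipid phosphatase-related protein, was 142 ± 7.84 in preGM, 83.5 ± 16.4 in CLP and at most 58.3 in the other 11 arrays. Tspoap1 was 39.6, 43.7 and 58.9 against at most 23.9, and Stxbp4 129 ± 20.9 against at most 48.1. The log2 differences of Plppr3 (1.23) and Tspoap1 (0.86) were smaller than those of the granule genes beside them, which were 5.51 for Prtn3, 2.09 for Elane and 6.06 for Mpo. Tmem176b (1409 ± 64.5) and Tmem176a (416 ± 42.5) were both highest in preGM and lowest in preCFUE (90.4 ± 5.72 and 12.8 ± 0.702).

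The 54 preGM-low genes were fewer, dimmer and closer to the rest. Their median log2 difference was -0.23, the median gap was 0.01, and none had a gap of 1 or more. In 35 the preGM mean was under 16, and 22 were under 16 in every fraction. At the edge, Fgf6 was inside with a gap of 0.000309 and 6330525I24Rik outside with -0.000327. Of the 54 genes, 22 passed the test, of which 8 had a preGM mean under 16, and 3 fell at least 2-fold. Those 3 were Slc14a1, Egr1 and Zfp36l1.

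Slc14a1, the urea transporter of red cells, was 118, 97.4 and 111 in preGM, 158, 197 and 146 in CLP, and 339 to 1955 in the other 11 arrays, with MkP on top. The difference was -2.03 ± 0.190 (log2, adjusted p = 4.69e-06) against the mean of the others, and -0.55 ± 0.242 against CLP, which did not pass (adjusted p = 0.122). The other probe set of the gene did not stand apart, since CLP replicate 1 read 33.2 there. Egr1, an immediate-early factor that responds to growth signals and to handling of cells, was 29.3, 43.9 and 46.2 in preGM. Arrays read 127 to 628 in CLP, 223 to 387 in preMegE, 130 to 173 in preCFUE and 82.0 to 127 in MkP. Its difference was -1.89 ± 0.304 (adjusted p = 0.000818), and against MkP alone it did not pass (-1.02 ± 0.389, adjusted p = 0.11).

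The rest of the immediate-early list did not follow Egr1. Of 14 genes, 1 was higher, 1 lower and 12 not past the test (median 0.02). The higher one was Ier3, at 148 ± 35.2 against 139 ± 29.3 in preMegE and 43.4 ± 3.67 in preCFUE, and this call was lost with quantile normalization (adjusted p = 0.276) and without preGM replicate 2 or 3 (adjusted p = 0.0537 and 0.136). The summed list ran from 1062 to 1161 in preGM and from 1904 to 4785 in CLP. Every preGM sum exceeded the highest MkP array (1033) and the highest preCFUE array (892). The preMegE arrays spanned 985 to 1326, a range that held all the preGM sums.

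Zfp36l1 and Cd81 were the 2 genes past the test as lower than each of the 4 fractions taken singly (0.0110% of all genes). That count was 1 to 6 with 1 array left out (6 without CLP replicate 2), 8 after quantile normalization and 58 with array weights. It was 93 without the CLP fraction and 13 without the MkP fraction, where fewer fractions remained to pass against. Zfp36l1, an RNA-binding protein that speeds mRNA decay, was 189, 238 and 229 in preGM and 386 to 760 in all 14 others. Its 4 differences ran from -0.98 ± 0.178 (preCFUE) to -1.31 ± 0.160 (preMegE), and its other, dimmer probe set was also apart below, at 10.8 to 12.7 against 13.5 or more. Cd81, a tetraspanin, was 410, 490 and 418 against 525 to 959, with preCFUE highest.

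The other preGM-low genes named by size had smaller differences. Frat1, a Wnt pathway gene, was 31.6 ± 2.32 in preGM and 35.6 or more in every other array (-0.68 ± 0.118, adjusted p = 0.0015). Kdr, a VEGF receptor, was 21.5 ± 2.90 against 80.5 ± 26.0 in MkP, and Ryk, a Wnt receptor, 20.4 ± 2.21 against 55.1 ± 11.4 in preCFUE. Oprm1, Pip5k1b, Slc41a3, Fam184a and the tetraspanin Tspan32 had differences of -0.51 to -0.66. Each of these 5 lost the call when single preGM arrays were left out, with an adjusted p of up to 0.156 for Tspan32 without replicate 1.

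**Figure D4:**
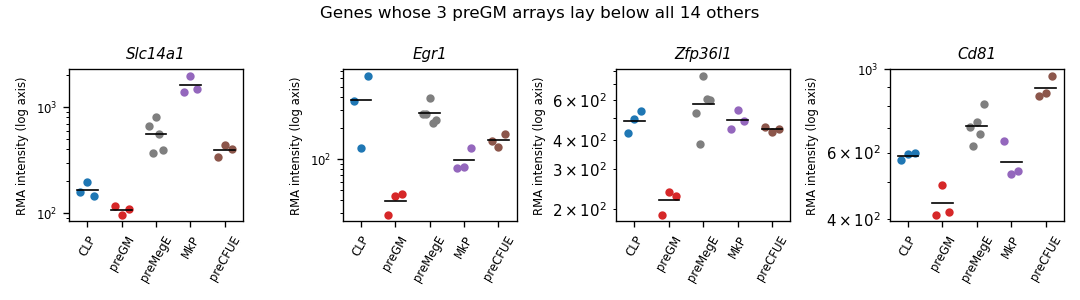
RMA intensity (log axis) of 4 preGM-low genes on each array by fraction, with points for arrays and bars for means. The 3 preGM arrays lie below all 14 others in each panel, with the nearest array from CLP for Slc14a1 and from MkP for Egr1 and Cd81.

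Most erythroid genes were lower in preGM than in the mean of the other fractions, and none on the list was preGM-low. Among all genes 1.99% were lower and 0.297% preGM-low. Of 25 measured, 19 were lower, none higher and 6 not past the test, with a median of -1.17, and 0 were higher at an unadjusted p under 0.05 (limma). CLP had a lower mean than preGM in 17 of the 25. Against CLP alone 11 were higher in preGM and 3 lower. Gata1 was 91.1, 89.3 and 87.3 in preGM, 38.5, 34.95 and 38.9 in CLP, and 511 to 1436 in the other 11 arrays. It was thus above CLP by 0.98 ± 0.162 (log2, adjusted p = 0.00137) and differed from preCFUE by -3.75. Klf1, the main erythroid Krüppel-like factor, was 130 ± 17.01 in preGM, 48.4 ± 8.85 in CLP and 2917 ± 209 in preCFUE. Mfsd2b, a sphingosine phosphate transporter of red cells and platelets, was 16.9, 20.3 and 24.4 in preGM and 345 to 1275 in the 11 arrays.

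Other erythroid genes were low in preGM next to preMegE and preCFUE, or did not pass the test. Ces2g, a carboxylesterase, was 42.5 ± 6.10 in preGM, 1114 ± 227 in preMegE and 1403 ± 250 in preCFUE. Aqp1, a water channel of red cells, was 41.9 ± 15.6 against 1015 ± 240 and 1069 ± 296 in the same fractions. Rhag, of the Rh complex, was 15.9 ± 5.88 against 637 ± 75.7 in preCFUE. Car2, a carbonic anhydrase, was 1004 ± 276 in preGM and 145 ± 102 in CLP and did not pass (-0.15 ± 0.297), and without preGM replicate 3 its sign turned (0.09). Tfrc, the transferrin receptor, was 346 ± 126 and did not pass.

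Megakaryocyte and platelet genes were lower in 13 of 24, higher in 3 and not past the test in 8 (median -0.55). Of all genes, 1.99% were lower and 6.98% higher. Vwf was 12.2 ± 1.97 in preGM against 1938 ± 216 in MkP, and Pf4 28.9 ± 4.94 against 6431 ± 316. Without the MkP fraction the difference of Pf4 was -0.20 (adjusted p = 0.551), whereas Vwf kept its call. Gp5, a platelet glycoprotein, was 22.2 ± 2.12 in preGM, 170 ± 31.8 in MkP and 131 ± 61.9 in preMegE. Selp and Plek were 2 of the 3 that were higher. Selp, P-selectin, was 152, 164 and 180 in preGM and 187, 235 and 215 in MkP, and 11.2 to 17.2 in the other 11 arrays. Plek, pleckstrin, was 994 ± 203 in preGM and 2443 ± 616 in MkP. Fli1 (212 ± 60.2) and Rgs18 (528 ± 199) did not pass.

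**Figure D5:**
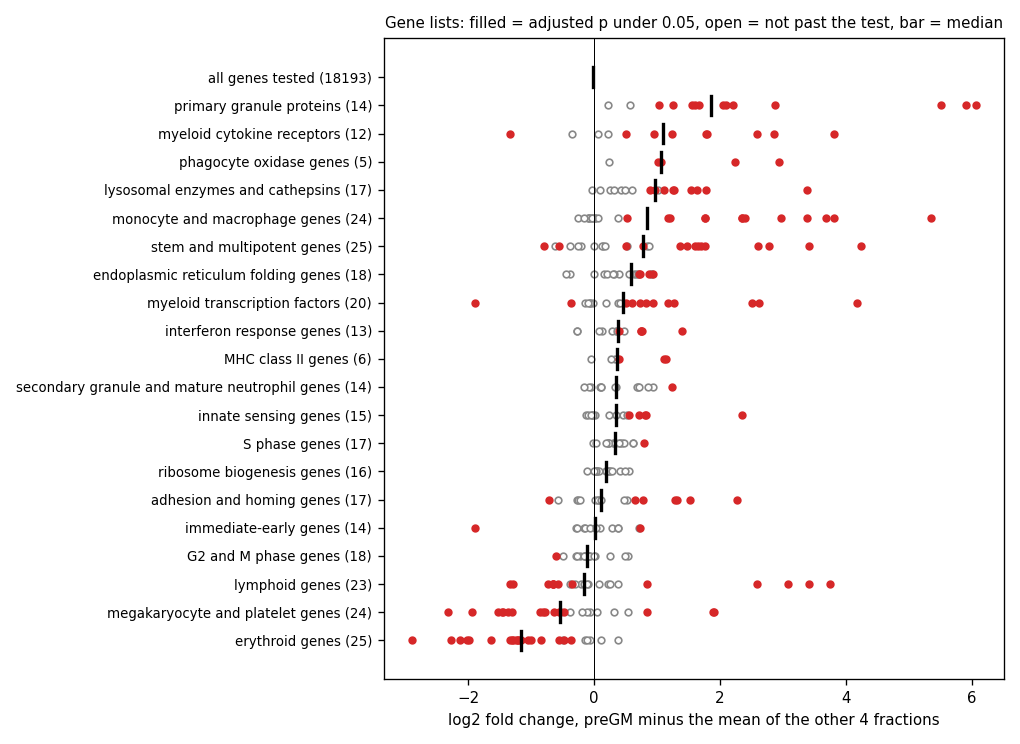
Log2 difference of each measured gene (points) in 20 gene lists, preGM minus the mean of the other 4 fraction means on the log2(intensity + 16) scale, with the number of genes beside each list. Filled points passed the limma test, open points did not, and bars mark list medians, which run from -1.17 (erythroid genes) to 1.85 (primary granule proteins) against -0.018 over all genes.

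Few S phase, G2 and M phase and ribosome biogenesis genes passed the test, where 6.98% of all genes were higher and 1.99% lower. With lists this short, no result about these genes or the folding genes given after them is read from the counts. S phase genes were higher in 1 of 17 (Gins1, 0.78 ± 0.206, adjusted p = 0.0272), and leaving out preGM replicate 1 ended that call (adjusted p = 0.187). At an unadjusted p under 0.05, 7 of the 17 were higher and 0 lower. G2 and M phase genes were lower in 1 of 18 (Ube2c, 114 ± 9.93 in preGM against 389 ± 113 in MkP), and leaving out any 1 preGM array ended the call (adjusted p = 0.0714 to 0.146). None of 16 ribosome biogenesis genes passed in either direction (limma, median 0.19), and 1 had an unadjusted p under 0.05. Of 18 genes for folding in the endoplasmic reticulum, 4 were higher and 14 did not pass (median 0.59), and at an unadjusted p under 0.05, 9 were higher and 2 lower. Calr, a calcium-binding chaperone, was preGM-high at 2909, 2855 and 3260 against at most 2197. Pdia6 (812 ± 215), P4hb (2016 ± 454) and Manf (480 ± 20.2) lost their calls without preGM replicate 1 or 2, with an adjusted p of 0.121 to 0.255. Hspa5 (4024 ± 660) and Canx (3331 ± 558) did not pass.

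Genes of innate sensing were higher in 5 of 15 (median 0.34), where 6.98% of all genes were higher. Ly86, a partner of the receptor CD180, was 260 ± 63.8 in preGM and 230 ± 76.8 in CLP. Tlr2 was 59.7, 59.7 and 30.7 and higher than each fraction singly, though 1 MkP array reached 33.7. Irak3, a brake on receptor signalling, was the preGM-high gene of the list at 64.9, 75.003 and 61.7 against at most 57.3. Clec7a, the receptor dectin-1, was 45.7 ± 14.2, and leaving out preGM replicate 1 ended its call (adjusted p = 0.0639). Myd88 (238 ± 16.9) did not pass. Interferon response genes were higher in 5 of 13 (median 0.37). Oasl2 was preGM-high among them at 122, 132 and 222 against at most 90.0.

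Adhesion and homing genes were higher in 6 of 17 and lower in 1 (median 0.10), and none was preGM-high. Among all genes the shares were 6.98%, 1.99% and 2.09% in that order. Cd48 was 780, 878 and 324 in preGM, with CLP replicate 2 at 478. Itgal, the LFA-1 alpha chain, was 291 ± 86.2 in preGM and 212 ± 21.7 in CLP. Selplg, the selectin ligand PSGL-1, was 983 ± 54.2 in preGM and 1057 ± 83.8 in CLP. Cd44 was 1160 ± 94.1 in preGM and 1159 ± 154 in CLP and did not pass. MHC class II genes were higher in 3 of 6 (median 0.36), where H2-Aa was 182 ± 56.8 in preGM and 252 ± 72.3 in CLP, and H2-DMa 497 ± 51.0 and 419 ± 124.

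Markers of other cells differed in some lists and not in others, where 8.97% of all genes passed the test in either direction. With lists this short, no result about other cells is read from these counts. None of 7 genes of mature B and plasma cells, 8 of T and NK cells or 6 of eosinophils passed the test (limma), and at an unadjusted p under 0.05 the counts were 0, 0 and 1. Of 9 genes of mast cells and basophils 2 were higher, namely Mcpt8 and Cpa3, both proteases. Mcpt8 was preGM-high at 138, 104 and 71.1 against at most 35.1, and lies beside Ctsg. Cpa3 was 153 ± 19.4 in preGM and 170 ± 36.4 in preMegE. The summed list ran from 680 to 756 in preGM and from 1793 to 2282 in preMegE. Of 10 genes of endothelium and stroma 2 were lower, Kdr and Col1a2. Col1a2 was 19.0 ± 0.746 in preGM, 20.01 ± 2.31 in CLP and 128 ± 12.7 in preMegE. Of 9 dendritic cell genes 2 were higher, 1 of them Flt3, and 1 was lower.

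The balance of higher and lower genes moved with the scaling of arrays and with the number of preGM arrays kept. Of the genes apart in preGM, 87.6% lay above. That share was 72.9% (245 above, 91 below) after quantile normalization and 66.3% (333 above, 169 below) after median centring. It was 74.8%, 73.2% and 73.7% without preGM replicate 1, 2 and 3, where 152, 166 and 326 genes lay below in place of 54. Leaving out a preGM array leaves fewer arrays that must agree, which by itself adds genes on both sides and can move the share. Of the 380 preGM-high genes 212 stayed apart above under quantile normalization and 322 under median centring, and of the 54 preGM-low genes 26 and 45 stayed below. In the test the share higher was 77.8%, and 61.9% (904 higher, 557 lower) after quantile normalization. It was 56.2% with array weights (4456 higher, 3471 lower) and 98.9% when the 14 other arrays were fitted as 1 group (351 higher, 4 lower). The upper quartile of intensity was 68.1, 68.3 and 60.4 in the preGM arrays and 50.6 to 74.4 in the others.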

How the data were processed

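RNA of sorted cells was amplified with a small-sample protocol that includes a further round of in vitro transcription and was hybridised to Affymetrix arrays, as the design text states. The authors deposited a linear intensity from RMA for every probe set on every array, and the RMA version is not given in the sources used here. The design text names a filter on SD over mean above 0.5, which had not been applied to the table of 45101 probe sets and was tried as an alternative. Fractions and replicate numbers were taken from the gate in each title. A free-text description common to the arrays names another gate and was not used.

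Names came from the platform annotation. It gave a single symbol to 34958 probe sets and several to 932, which stay unnamed here, and it did not list 9160. RefSeq (GRCm38.p6) held 34754 of the 34958. For each of 18193 genes the probe set with the highest mean over 17 arrays was used, on log2(intensity + 16). A model with a term per fraction over all 17 arrays was fitted with limma 3.58.1 in R 4.3.3 (12 residual and 2.01 prior degrees of freedom), tested on simulated data, and p-values were adjusted by Benjamini-Hochberg over all genes. The number of arrays limits the precision, and 6025 genes had a mean under 16, where a dim value is no evidence of absence.

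The members and all 29 gene lists were chosen with earlier results of these data known. Named genes were the sort and marker genes, the 12 largest rises and 12 largest falls among members past the test, and from each list the 4 largest changes past the test and the 2 brightest genes that did not pass. The genes at the edge of the non-overlap rule were added. Of the 150 genes this rule gives 111 are named, and 48 others were chosen after their values were seen. Alternatives covered the pseudocount, probe set choice, dim genes, array scaling and weights, the 3-prime ratio, a replicate block, fractions and single arrays left out. It is not given if arrays with the same replicate number belong together. Same-numbered arrays of different fractions had deviations correlating at -0.543 to 0.508, with a mean of -0.0052, against 0.0011 for other numbers. These correlations cannot decide if sorts or batches were shared.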

Additional observations from a re-analysis of the deposited data

Results flagged for a closer look

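In the 5 preMegE arrays, the one fraction with enough arrays for this check, 12 of 159 named genes had 1 array far from the other 4, where chance flags about 1 in 20. The preMegE replicate 2 array was low for Adgrl4 (28.7, others 41.7 to 46.4), Itga2b (209.4, others 323.6 to 375.8), Hexa (355.8, others 437.2 to 473.2), Npc2 (1662.9, others 2277.4 to 2545.4) and Alox5ap (262.6, others 346.5 to 377.4), and high for the granule protease gene Mcpt8 (35.1, others 17.6 to 19.9). The preMegE replicate 4 array was high for Il3ra (20.7, others 16.2 to 17.2) and Procr (16.5, others 10.5 to 11.2) and low for Tlr2 (14.9, others 18.2 to 19.1). The preMegE replicate 1 array was high for Il6ra (14.4, others 11.5 to 12.3). The preMegE replicate 3 array was high for Col1a2 (150.1, others 119.2 to 125.8). The preMegE replicate 5 array was high for Ighm, the IgM heavy chain (582.7, others 10.8 to 22.0).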

How the results depend on the processing

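Of 129 named genes past the test, 101 could be tested under all 31 alternatives, and 49 of these kept their direction and their call in each. Of the 30 named genes that did not pass, 26 passed under at least 1 alternative, 20 with array weights and 7 without CLP replicate 2. The 1632 genes past the test became 1050 with the SD over mean filter, which leaves fewer genes to test, 7927 with array weights (5.52 for preGM replicate 2 and 0.34 for replicate 3), 355 when the 14 other arrays were fitted as 1 group, and 2888 without preGM replicate 3 and CLP replicate 2. Leaving out 1 array gave 1055 (without preGM replicate 2) to 2352 (without CLP replicate 2). The 434 genes apart in preGM became 192 with that filter, 1113 without CLP, 1498 without the 2 named arrays, and 438 to 1239 with 1 array left out (highest without preGM replicate 3). Leaving out arrays adds such genes by itself. The 250 genes past the test against each fraction became 710 with array weights, 807 without CLP, 443 without the 2 arrays, and 159 to 337 with 1 array left out. With the replicate block 1203 genes passed the test (951 higher, 252 lower) and 167 did so against each fraction, and it is unknown if the arrays are paired.

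Of the named genes past the test, 4 changed sign, all when a whole fraction was left out: Ebf1 (0.019), Rag1 (0.0563) and Xist (-0.118) without CLP, and Itga2b (0.252) without MkP. The other sign changes were in genes that did not pass before the setting was changed, given as log2 differences. Of the values with a changed sign, only those given with an adjusted p passed the test. Without CLP Il7r was 1.27 (limma, adjusted p = 0.0054) and Cyba -0.0681, and without MkP Ikzf1 was -0.407 (adjusted p = 0.0462). With array weights Car2 was 0.142, Il7r 0.306, Myb 0.0116 and Nfe2l2 0.0225. With 1 array left out, Car2 ran from -0.31 to 0.0897, Il7r from -0.517 to 0.335 and Nfe2l2 from -0.288 to 0.085, each highest without preGM replicate 3. Without that array and CLP replicate 2 Car2 was 0.211, Il7r 0.394 (limma, adjusted p = 0.00631), Myb 0.0111 and Nfe2l2 0.153. Likewise Eng ran from -0.282 (without preGM replicate 3 and CLP replicate 2) to 0.00509 and S100a8 from -0.0419 to 1.8, both changing sign without preGM replicate 2, and Myb from -0.0581 to 8.27e-05, highest without CLP replicate 2. With the mean over probe sets Ccr2 was 0.17, Ikzf1 -0.0554 and Myb 0.0765. With quantile normalization Ikzf1 was -0.115, and with a pseudocount of 1 Il7r was 0.153. The cause of these changes was not tested. With 3 preGM arrays, 1 of which stands off from the others, genes near the edge of the rule cannot be placed firmly.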
